A study of Mus musculus with 24 samples.

Results

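MiR-150 and miR-342-3p are mature microRNAs known from lymphocytes. They are the assays named mmu-miR-150 and mmu-miR-342-3p, 2 of the 584 miRNA assays in the deposited table. The assays were found by these names, and the pair was picked with earlier results of these data known. TaqMan arrays, which read each miRNA by real-time PCR in a well of its own, were run on 4 groups of mouse cells, each with 3 replicates. L-1210 is a lymphocytic leukaemia line that grew as lymphoblast-like cells in suspension, M1 is a myeloid leukaemia line that also grew in suspension, PYS is a teratocarcinoma line with adherent, epithelial-like growth, and CT-BM is bone marrow taken from mouse femur and tibia. Strain, sex and age of the mice are not given in the labels, and no group was treated. The lines were taken at passage 3 of culture. Each line is 1 line and not a sample of many tumours. For CT-BM the labels give both a flush of the bones and a protocol for growth in suspension, and the title speaks of stem cells, so whether the marrow was cultured is not clear. The labels do not say that replicates were separate cultures or animals, so p-values cover the spread among these samples alone, and that spread may be technical.

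As background, miR-150 is abundant in mature B and T lymphocytes and is low in their progenitors. In mice it represses Myb, a transcription factor of blood progenitors, and too much of it early blocks B-cell formation. MiR-342 lies in an intron of Evl, a gene for an actin-regulating protein of the Ena/VASP family. Its 3p arm is known from lymphocytes and, in human promyelocytic leukaemia cells, rises when the cells are driven to differentiate. A miRNA hairpin can yield a mature strand from each arm, and usually 1 arm is kept and the opposite one is degraded.

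The miR-342 sequences are shown because the results turn on its 2 arms, which the array reads with separate assays. They are from RefSeq on GRCm38.p6, strand +. The table of sequences matched 1 of the 2 members by name. The mature strands are written with the seed (bases 2 to 8, which pair with target RNAs) in capitals, and the hairpin with both mature arms in capitals, the 5p arm first. No other mature strand among 1738 entries shared the seed of either arm.
miR-342-3p, chr12:108658680-108658702: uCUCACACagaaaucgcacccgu
miR-342-5p, chr12:108658638-108658659: aGGGGUGCuaucugugauugag
Mir342 hairpin, chr12:108658620-108658718: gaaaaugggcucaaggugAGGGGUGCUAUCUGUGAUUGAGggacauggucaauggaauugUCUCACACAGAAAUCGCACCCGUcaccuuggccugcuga
The Mir342 gene lies within the span of Evl (chr12:108554681-108688516) and starts 103939 bases from the start of that span. Mir150 lies on another chromosome, at chr7:45121757-45121821, so the 2 miRNAs share no locus.

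Each member had 1 well per replicate on card A, and all 12 wells of each amplified. The threshold cycle (Ct) is the PCR cycle at which a well's signal crosses the detection threshold, and at full efficiency it falls by 1 for each doubling of template. Level here means the negative delta Ct, a log2 scale relative to 3 control RNAs (MammU6, snoRNA135 and snoRNA202, averaged) in the same replicate and card, so a less negative level means more RNA. Ct over 35 or no amplification counted as not detected, and read depth does not apply. The 3 controls together had a mean Ct on card A of 13.8 in L-1210, 12.5 in M1, 13.9 in PYS and 14.8 in CT-BM, so the scale itself moved between groups. Changes were tested with limma over all tested assays with Benjamini-Hochberg adjustment, and a call needed an adjusted p under 0.05 and at least a 2-fold change. A log2 fold change is given with its standard error, after ± or named SE. The groups were checked with other marker miRNAs. All 11 assays of a list of embryonic stem cell miRNAs were detected in every PYS replicate, and most in no CT-BM replicate. One that CT-BM also held in every replicate, miR-294, was at -2.75 in PYS and -13.22 in CT-BM. The level of miR-223, a granulocyte miRNA, was -12.35 in L-1210, -2.22 in M1, -17.48 in PYS and 1.33 in CT-BM. MiR-21, on the same list of granulocyte and monocyte miRNAs, did not separate the groups. It was at -6.13 in L-1210, -6.30 in M1, -6.63 in PYS and -6.01 in CT-BM. In CT-BM, which holds mixed cells, fewer cells of a type and less RNA per cell cannot be told apart.

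The 2 miRNAs were both high in bone marrow and both far lower in the leukaemia lines, and they parted in the teratocarcinoma line. MiR-150 was far lower than in marrow in all 3 lines. MiR-342-3p was at about the marrow level in PYS, a line in which blood-wide miR-142-3p was at -18.12 and miR-142-5p was not detected. Not every blood miRNA was low there. Among 11 miRNAs of blood progenitors, the highest levels in PYS were -4.29 for miR-99b, -5.14 for miR-126-3p and -5.53 for miR-125a-5p. The lowest detected was miR-222 at -18.03, and miR-221, miR-10a and miR-10b were not detected in PYS. MiR-126-3p was still lower in PYS than in CT-BM, where it was at -1.81. PYS was also the 1 group in which the opposite arm, miR-342-5p, amplified.

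**Figure D1:**
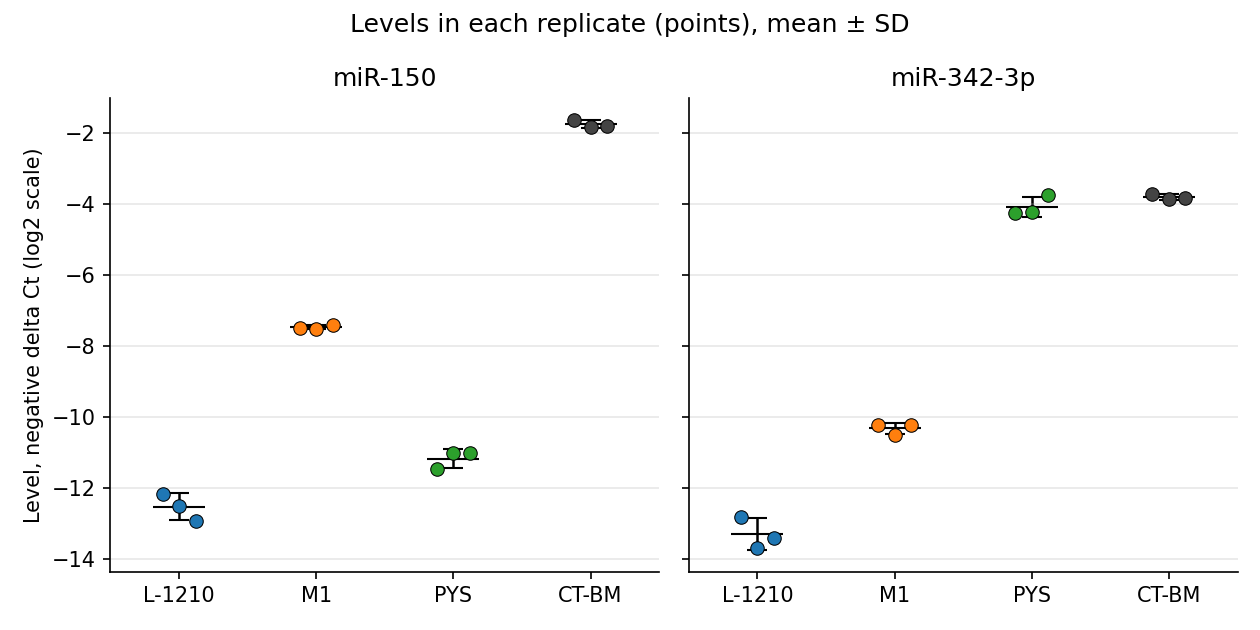
Level of miR-150 (left) and miR-342-3p (right) as negative delta Ct on a log2 scale, for the 3 replicates of L-1210, M1, PYS and CT-BM; bars are mean ± SD. The 3 CT-BM replicates stand highest for miR-150, and for miR-342-3p the replicates of PYS and CT-BM overlap while L-1210 and M1 stand lower.

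For miR-150, the level was -12.15, -12.50 and -12.90 in L-1210, -7.49, -7.51 and -7.40 in M1, -11.46, -11.00 and -11.01 in PYS, and -1.61, -1.82 and -1.80 in CT-BM. The means were -12.52 ± 0.38 in L-1210, -7.47 ± 0.06 in M1, -11.16 ± 0.26 in PYS and -1.74 ± 0.11 in CT-BM (SD, n = 3 each). No 2 groups overlapped, and the order from high to low was CT-BM, M1, PYS, L-1210. The Ct behind these levels was 26.0, 26.8 and 26.2 in L-1210, 20.3, 19.8 and 19.7 in M1, 25.4, 24.5 and 25.2 in PYS, and 16.1, 16.9 and 16.7 in CT-BM. Every well was thus far from the limit of 35 cycles. Among mouse miRNA assays of card A detected in every replicate of a group, miR-150 ranked 124 of 175 in L-1210, 54 of 157 in M1, 114 of 195 in PYS and 8 of 190 in CT-BM. These ranks set assays beside each other whose efficiencies are not given, and serve only as a guide. In CT-BM its neighbours in the ranking were miR-484 just above and miR-126-3p, known from endothelium and blood progenitors, just below.

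For miR-342-3p, the level was -12.80, -13.69 and -13.39 in L-1210, -10.22, -10.50 and -10.22 in M1, -4.24, -4.21 and -3.74 in PYS, and -3.70, -3.85 and -3.83 in CT-BM. The means were -13.29 ± 0.45 in L-1210, -10.31 ± 0.16 in M1, -4.07 ± 0.28 in PYS and -3.79 ± 0.08 in CT-BM (SD, n = 3 each). PYS and CT-BM overlapped, and M1 and L-1210 stood below both and apart from each other. The Ct was 26.6, 28.0 and 26.7 in L-1210, 23.1, 22.8 and 22.5 in M1, 18.1, 17.7 and 18.0 in PYS, and 18.2, 18.9 and 18.7 in CT-BM. Before any scaling, the PYS wells therefore came up a mean of 0.667 cycles earlier than the CT-BM wells and did not overlap them. The rank of miR-342-3p was 133 of 175 in L-1210, 89 of 157 in M1, 19 of 195 in PYS and 18 of 190 in CT-BM. Its place near the top of the list was shared by the teratocarcinoma line and the marrow.

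Lymphocytic leukaemia cells were first set against marrow. Both members fell in L-1210 against CT-BM, a comparison in which 45.6% of the 333 tested assays were called lower and 79.3% had groups that do not overlap. The fall of miR-150 was 1750-fold (log2 fold change -10.77, SE 0.23, 3 replicates a group; limma adjusted p = 6.57e-13). MiR-342-3p was 725-fold lower (log2 fold change -9.50 ± 0.25; limma adjusted p = 1.66e-12). Both falls were far larger than the spread between replicates. Their size depended on the control: with snoRNA202 alone and with MammU6 alone, the log2 fold change was -12.41 and -9.03 for miR-150 and -11.14 and -7.76 for miR-342-3p. Among the 227 assays that all 6 replicates detected, 4 fell further than miR-150 and 7 fell further than miR-342-3p. Over all 333 tested assays, which include those not detected in L-1210, 23 fell further than miR-150 and 31 further than miR-342-3p. The median log2 change of all tested assays was -0.82. The split of calls over all assays moved with the control: 75 were higher and 152 lower with the 3 controls, against 163 higher and 92 lower with MammU6 alone, and both members were called lower with either.

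In the myeloid leukaemia cells both members fell again, M1 against CT-BM, beside 44.3% of 325 tested assays called lower and 79.7% with groups that do not overlap. The fall of miR-150 was 52.8-fold (log2 fold change -5.72, SE 0.23; limma adjusted p = 8.20e-11). MiR-342-3p was 91.6-fold lower (-6.52 ± 0.25; limma adjusted p = 5.40e-11). Over the scalings the log2 fold change ran from -6.04 to -5.01 for miR-150 and from -6.84 to -5.68 for miR-342-3p. Of the 217 assays that all 6 replicates detected, 11 fell further than miR-150 and 6 further than miR-342-3p. Over all 325 tested assays, which include those not detected in M1, 75 fell further than miR-150 and 68 further than miR-342-3p. The median log2 change of all tested assays was -0.59.

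PYS against CT-BM split the pair. MiR-150 fell 682-fold in PYS (log2 fold change -9.41, SE 0.23; limma adjusted p = 4.13e-13), in a comparison where 38.7% of 362 tested assays were called lower and 89.5% had groups that do not overlap. Over the scalings the log2 fold change of miR-150 ran from -10.33 to -7.91. MiR-342-3p did not pass the test (log2 fold change -0.28 ± 0.25; limma adjusted p = 0.307). The 95% interval of its difference ran from -0.82 to 0.27, inside a 2-fold change in either direction under this scaling. That result depended on the control. With MammU6 alone miR-342-3p was called higher in PYS (1.23), and with snoRNA135 alone (-1.19) or both snoRNAs without MammU6 (-1.03) it was called lower. The median log2 change of all 362 tested assays moved too. It was 0.08 with the 3 controls (144 called higher, 140 lower), 1.84 with MammU6 alone (205 higher, 104 lower) and -0.84 with snoRNA135 alone (104 higher, 171 lower). MiR-342-3p was below that median in all 3. A change of control shifts all assays of a card together, so this was largely fixed by construction and the 3 are not separate support. On card A, MammU6 came up 0.567 cycles later in PYS than in CT-BM, while snoRNA135 came up 1.86 and snoRNA202 1.53 cycles earlier. The direction of a change of about 2-fold in miR-342-3p between PYS and CT-BM is therefore not settled by these controls, whereas miR-150 was called lower in PYS with each of them.

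**Figure D2:**
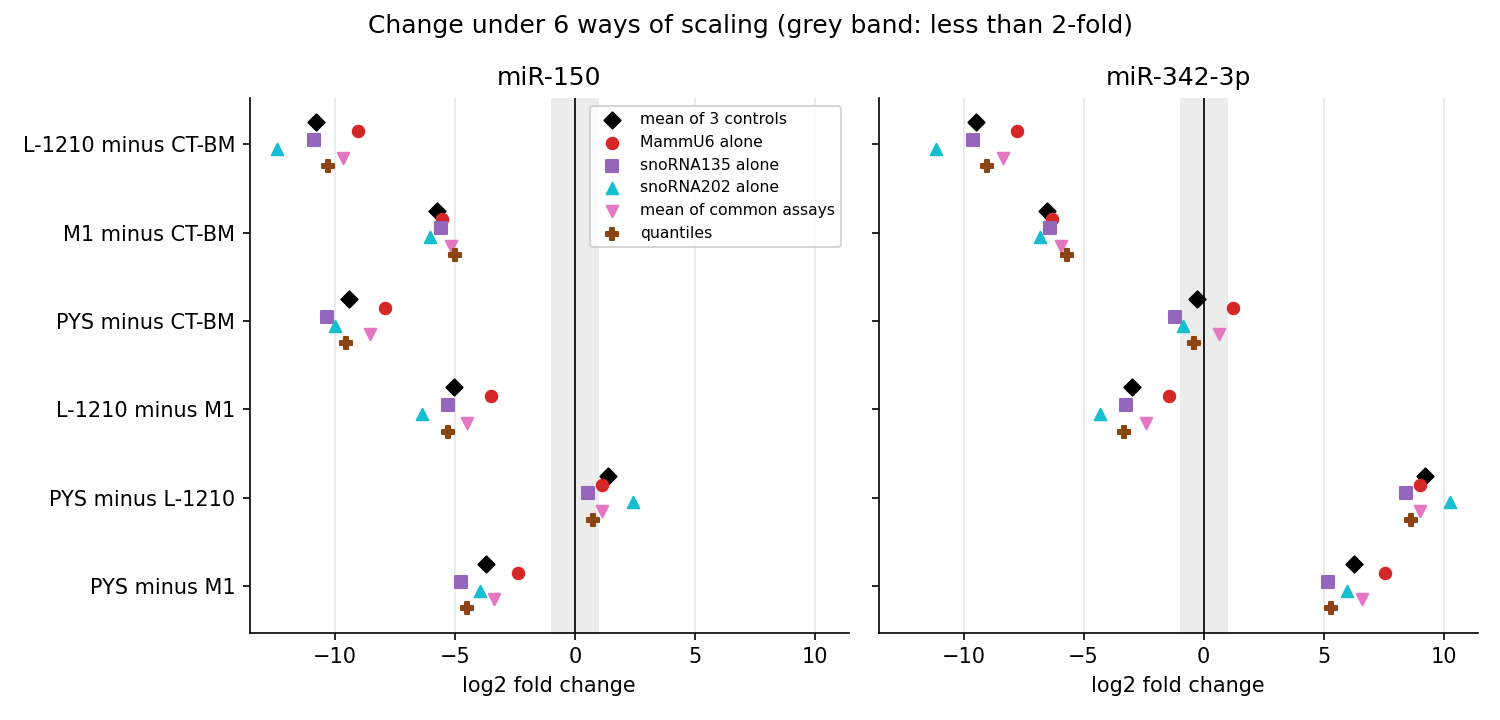
Log2 fold change (horizontal axis) of miR-150 (left) and miR-342-3p (right) in the 6 comparisons of 2 groups, under the mean of the 3 controls, each control alone, the mean of commonly detected assays and quantile scaling; the grey band is less than 2-fold. The marks of a comparison lie on the same side of 0 except for miR-342-3p in PYS minus CT-BM, which runs from -1.19 to 1.23.

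Between the lines, L-1210 was below M1 for both members, in a comparison with 30.9% of 304 tested assays called lower and 69.4% with groups that do not overlap. The fall was 33.2-fold for miR-150 (log2 fold change -5.05, SE 0.22; limma adjusted p = 3.21e-10) and 7.91-fold for miR-342-3p (-2.98 ± 0.25; limma adjusted p = 2.05e-07). The lymphocytic line thus held less of both lymphocyte miRNAs than the myeloid line under each scaling tried, by a log2 fold change from -6.37 (snoRNA202 alone) to -3.50 (MammU6 alone) for miR-150 and from -4.30 to -1.43 for miR-342-3p with the same controls. PYS was above L-1210 for both members, where 46.1% of 349 tested assays were called higher and 82.8% had groups that do not overlap. The difference was 2.56-fold for miR-150 (1.36 ± 0.23; limma adjusted p = 0.000113) and 599-fold for miR-342-3p (9.23 ± 0.25; limma adjusted p = 5.14e-13). For miR-342-3p the scalings gave 8.42 to 10.27. Of 218 assays that all 6 replicates detected, 3 stood further above L-1210 in PYS than miR-342-3p did. Over all 349 tested assays, which include those not detected in L-1210, 42 did. The smaller difference of miR-150 was not called with snoRNA135 alone (0.55; limma adjusted p = 0.121) or with quantile scaling (0.76, less than 2-fold). PYS against M1 gave opposite directions, where 27.4% of 340 tested assays were called lower, 46.2% called higher and 83.2% had groups that do not overlap. MiR-150 was 12.9-fold lower in PYS (-3.69 ± 0.23; limma adjusted p = 4.25e-09) and miR-342-3p 75.7-fold higher (6.24 ± 0.25; limma adjusted p = 3.36e-11). The scalings gave -4.74 to -2.37 for miR-150 and 5.19 to 7.56 for miR-342-3p.

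Because both wells lie on the same card, the ratio of miR-150 to miR-342-3p needs no control RNA. The log2 ratio was 0.65, 1.19 and 0.48 in L-1210, 2.73, 2.99 and 2.82 in M1, -7.22, -6.79 and -7.27 in PYS, and 2.08, 2.03 and 2.03 in CT-BM. It was positive in every replicate of the 3 blood groups and negative in every PYS replicate. Its absolute size also carries the efficiencies of the 2 assays, so only differences between groups are read. The ratio was 564-fold lower in PYS than in CT-BM (difference -9.14), 234-fold lower than in L-1210 (-7.87) and 980-fold lower than in M1 (-9.94). Against CT-BM, L-1210 differed by -1.27 and M1 by 0.80, and L-1210 against M1 by -2.07. The SD between replicates was 0.37 in L-1210, 0.13 in M1, 0.26 in PYS and 0.03 in CT-BM. For each of the 6 comparisons the groups did not overlap and the two-sided exact permutation p was 0.1, the floor for groups of 3, and again 0.1 with Benjamini-Hochberg adjustment over the 6.

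The opposite arms of the 2 hairpins were then read. MiR-150*, the opposite strand of miR-150, did not amplify in any replicate of any group, in 2 wells each on card B. MiR-342-5p, on card A, had a Ct of 25.8, 25.0 and 26.0 in PYS and did not amplify in any replicate of L-1210, M1 or CT-BM. The sequence pair above thus gave signal from both arms in PYS and from the 3p arm alone elsewhere. Against CT-BM, miR-342-5p was at least 348-fold higher in PYS with the 3 controls (log2 fold change of at least 8.44, limma), a bound set by the Ct limit that ran from 7.53 to 9.95 over the scalings. Of the 375 assays on card A, 40 (10.7%) were detected in every PYS and no CT-BM replicate, and 23 (6.13%) in every PYS replicate and in no replicate of another group.

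With both arms on 1 card, their ratio also needs no control. In PYS the 3p arm exceeded the 5p arm by 7.69, 7.33 and 8.01 on the log2 scale, a mean of 7.68 ± 0.34 (SD, n = 3). In CT-BM, with the 5p arm at the Ct limit or later, the 3p arm exceeded it by at least 16.8, 16.1 and 16.3. The lowest bound in CT-BM was 8.08 above the highest value in PYS, so the ratio of the 5p to the 3p arm was at least 271-fold larger in PYS replicates than in CT-BM replicates, at nearly equal Ct of the 3p arm. In M1 the bounds were 11.9, 12.2 and 12.5, all above the PYS values. In L-1210 the 3p arm itself was so low that the bounds of 8.38, 7.03 and 8.29 reached down to the PYS values, so a difference in arm ratio was not detectable there. No test was run on the bounds of this ratio.

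**Figure D3:**
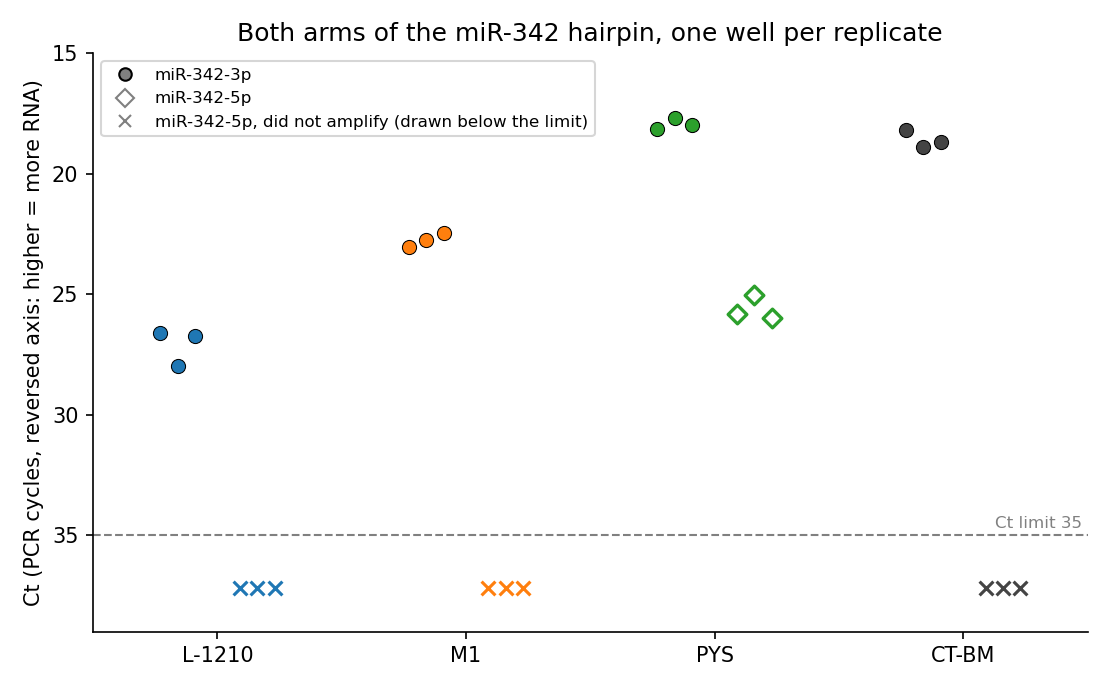
Ct in PCR cycles (reversed axis, so that more RNA is higher) of miR-342-3p (filled circles) and miR-342-5p (open diamonds) in each replicate of L-1210, M1, PYS and CT-BM; crosses below the dashed Ct limit of 35 are wells that did not amplify. The 5p arm appears in PYS at Ct 25.0 to 26.0 and in no other group, although the 3p arm of CT-BM, at 18.2 to 18.9, is close to that of PYS.

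The members were set beside other lymphocyte and immune-activation miRNAs, a list of 12 names of which 11 were on the cards. In PYS, 8 of the 10 tested assays fell against CT-BM and 2 rose, miR-342-5p and miR-28, with a list median log2 change of -5.27 beside 0.08 over all 362 tested assays, of which 38.7% were called lower and 39.8% higher. MiR-342-5p was tested only because PYS detected it, so its rise was fixed by the filter, and miR-28 was higher by a log2 fold change of 3.07 (2.15 to 4.58 over the scalings). Folds of single assays here are with the 3 controls. MiR-155, induced in activated lymphocytes, fell 103-fold (log2 fold change -7.63 to -5.18 over the scalings). The fall was 1340-fold for miR-146a, a brake on innate immune signals (-11.31 to -8.88). MiR-181a, which tunes T-cell receptor signalling, was detected in 1 of 3 PYS replicates, and miR-181c in none. Both passed the filter through CT-BM alone, so their falls were largely set by the filter. The blood-wide miR-142-3p was at -18.12 in PYS, against -2.72 in CT-BM, and miR-142-5p was not detected in PYS. MiR-342-3p at -4.07 in PYS stood beside these lower levels in the same replicates. In this comparison the list kept 8 lower and 2 higher under each scaling tried except MammU6 alone, which gave 6 and 2.

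In the leukaemia lines the same list changed less than the members with the 3 controls, and its medians lay near those of all tested assays. In L-1210, 5 of 9 tested assays fell and 2 rose (list median -1.23, beside -0.82 over all tested assays). In M1 3 of 9 fell and 1 rose (-0.61, beside -0.59). Over all tested assays, 22.5% were called higher and 45.6% lower in L-1210, and 25.2% higher and 44.3% lower in M1. The counts of the list moved with the scaling, to 1 lower and 4 higher in L-1210 with MammU6 alone, 7 lower and 0 higher there with snoRNA202 alone, and 0 lower and 2 higher in M1 with quantiles. MiR-155 was 5.25-fold higher in L-1210 (log2 fold change 2.39, SE 0.30) and 5.32-fold higher in M1 (2.41, SE 0.30), with 0.76 to 4.13 over the scalings in L-1210, where its rise was not called with snoRNA202 alone. MiR-181a was 4.06-fold lower in L-1210 (-2.02 ± 0.57), a call that 6 of 8 scalings gave (-3.65 to -0.28), and had a log2 fold change of -1.17 (SE 0.57) in M1, which did not pass. Blood-wide miR-142-3p had levels of -3.99 in L-1210, -5.07 in M1 and -2.72 in CT-BM. Its log2 fold change against CT-BM was -1.27 (SE 0.55) in L-1210, which did not pass, and it fell 5.09-fold in M1 (-2.66 to -1.45 over the scalings). The falls of 52.8-fold to 1750-fold in miR-150 and miR-342-3p thus stood beside changes of up to 6.85-fold in the tested assays of the list in these lines, all with the 3 controls. Large falls were not particular to the 2 members. Granulocyte miR-223 had a log2 fold change of -13.68 in L-1210 and -3.55 in M1, and miR-125a-5p had -11.37 and -11.51. Not every marker fell, and miR-21 was at -0.13 and -0.29, not called in either line.

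**Figure D4:**
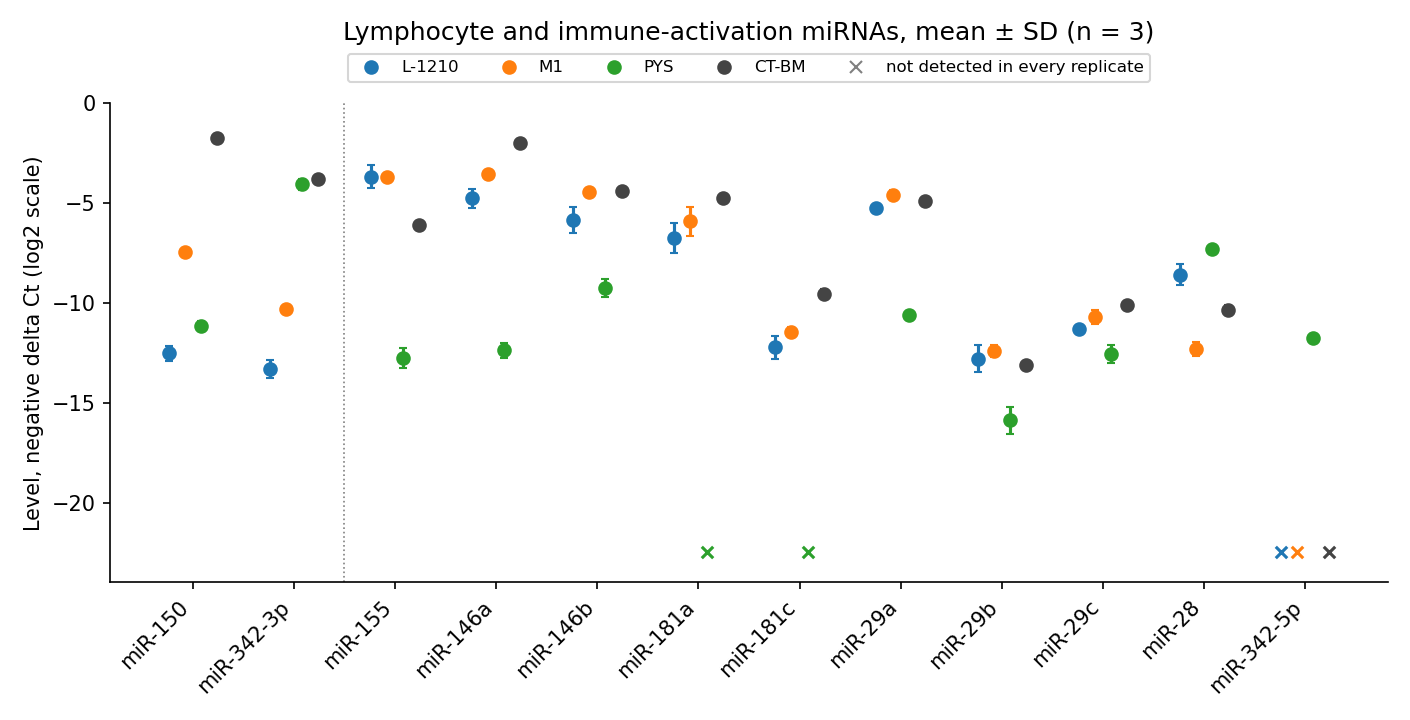
Level as negative delta Ct (log2 scale, mean ± SD, n = 3) of miR-150, miR-342-3p and 10 other lymphocyte and immune-activation miRNAs in L-1210, M1, PYS and CT-BM; crosses mark groups without detection in every replicate. In PYS miR-342-3p is at -4.07, while miR-155, at -12.78, and miR-146a, at -12.39, lie far lower.

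The assays with the most similar pattern differed between the members. Over the 12 replicates and 176 mouse miRNA assays detected in all of them, miR-150 and miR-342-3p had a Pearson correlation of 0.54, with miR-342-3p in place 49 in the order of miR-150 and miR-150 in place 47 in that of miR-342-3p. Such correlations describe 4 groups of 3 replicates that share the same control RNAs, and carry no test. The assays named here were picked by correlation, so a shared group pattern is built in. The size of change can still be unlike: miR-30e was at -7.19 in L-1210 and -5.54 in CT-BM. Nearest to miR-150 were miR-140 (0.97), miR-30e (0.96), miR-503 (0.95), miR-21* (0.94) and miR-126-3p (0.94), all with their highest mean in CT-BM. Nearest to miR-342-3p were miR-30a* (0.98), miR-125a-5p, abundant in blood stem cells (0.94), miR-574-3p (0.94), miR-374 (0.94) and miR-99b* (0.93). These were all higher in PYS and CT-BM than in both leukaemia lines, and miR-125a-5p was at -16.98 in L-1210, -17.12 in M1, -5.53 in PYS and -5.61 in CT-BM. Least alike were miR-27a* (-0.92), miR-532-5p (-0.90) and miR-671-3p (-0.90) for miR-150, and miR-9, known from brain (-0.91), miR-192 (-0.88) and miR-674* (-0.84) for miR-342-3p.

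**Figure D5:**
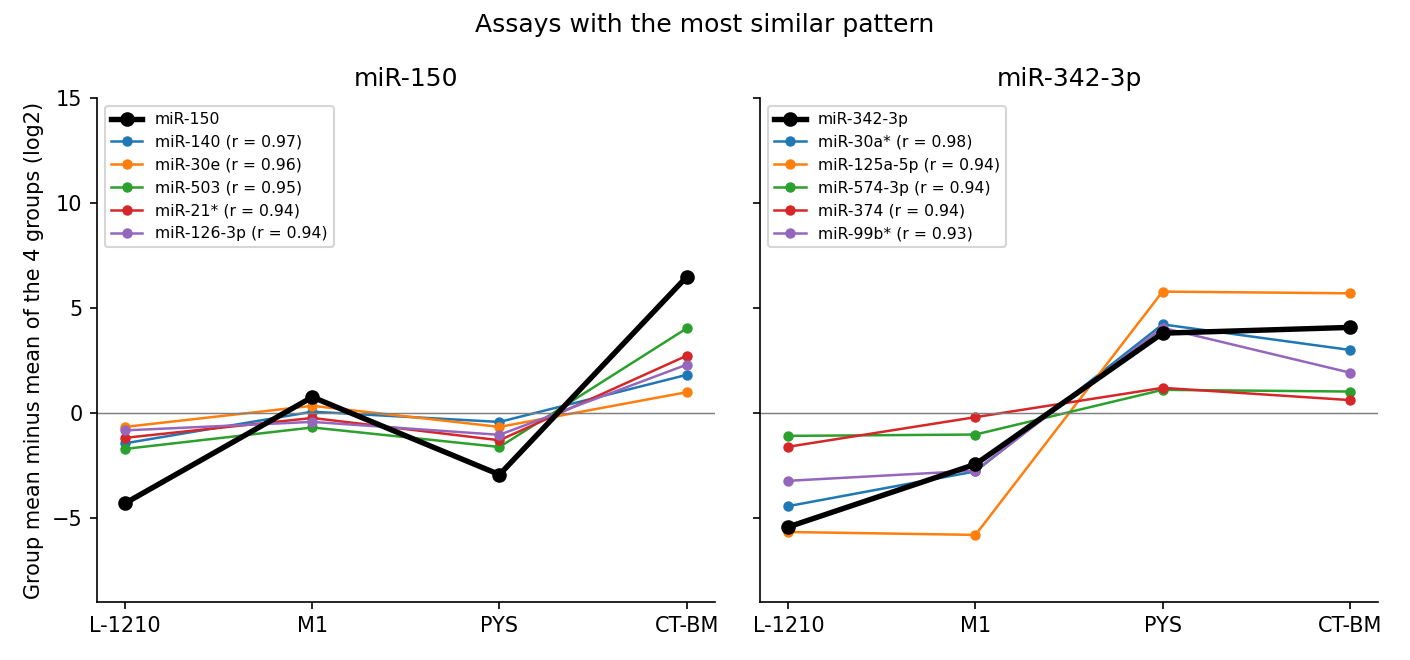
Group mean minus the mean of the 4 groups (log2) for miR-150 (left, black), miR-342-3p (right, black) and the 5 assays most correlated with each over 12 replicates; lines only join the points of an assay. The miR-150 set peaks in CT-BM, and the miR-342-3p set is high in both PYS and CT-BM, with r of 0.93 to 0.98. The assays were chosen by this correlation, so the shared shape is built in.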

How the data were processed

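Per the labels' protocols, total RNA (mirVana kit) was reverse transcribed, preamplified and run by the authors for 40 cycles on TaqMan cards A and B. The deposited table holds the Ct of each well in PCR cycles, with automatic baseline and threshold per the file headers, not normalized. The table held 8969 wells (367 to 380 per card run, 24 runs), of which 4334 did not amplify. The 24 GEO samples share 12 titles, 2 samples a title, and the table has 2 card runs a title, counted as 1 replicate, so 12 replicates were used. The labels do not tell which sample is which card. One run carried no card letter. All of its 367 assays were assays of card A, and 6 of them were also on card B.

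Delta Ct used MammU6, snoRNA135 and snoRNA202, the controls of the design text. An assay was tested where every replicate of at least 1 group was detected. Fits used limma 3.58.1 in R 4.3.3 (4 group means, all 12 replicates), and exact permutation tests used SciPy 1.17.1 in Python 3.11.15. The fit was tested on simulated data. Members and lists were chosen with earlier results of these data known. Named genes were the members, their opposite arms, the 5 most and 3 least correlated assays, neighbours in rank, and members of the lymphocyte list and extremes of the other lists. Replicate numbers were not used to pair samples in the main fit (correlations of same-numbered deviations -0.45 to 0.33, over 0.1 in 3 of 18). With 3 replicates a group, these correlations cannot show whether replicates of the same number shared a run. Precision is limited by 3 replicates with 1 well each. No column of values was left unused (0 columns).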

Additional observations from a re-analysis of the deposited data

Results flagged for a closer look

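The change against CT-BM differed between lines for both members, by the limma fit of the lines against each other. For miR-150 the change in L-1210 minus that in M1 was -5.05, in PYS minus L-1210 1.36, and in PYS minus M1 -3.69 on the log2 scale. For miR-342-3p the same differences were -2.98, 9.23 and 6.24. The CT-BM samples are shared by each pair of changes and drop out of these differences. Of the 6, the 1.36 of miR-150 in PYS minus L-1210 is the one whose call was lost under some settings.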

How the results depend on the processing

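The 12 fold changes of the members were refitted under 29 alternatives each, and 341 of 348 values kept direction and call, including 144 of 144 that left out a replicate. For miR-342-3p in PYS minus CT-BM the values were 1.23 with MammU6 alone (called higher) and 0.62 with the mean of common assays (under 2-fold), both reversed, and -1.19 with snoRNA135 alone and -1.03 with snoRNA135 and snoRNA202 without MammU6, both called. With other controls or with the mean of common assays, the value moves by the shift of that reference, by construction. Why the references differ between the groups was not tested. For miR-150 in PYS minus L-1210 the call was lost at 0.55 with snoRNA135 alone, again by the control's shift, with limma's treat (1.36; adjusted p = 0.116), which by construction tests against 2-fold, and at 0.76 with quantile normalization, where the cause was not tested. The miR-150 to miR-342-3p ratio moved in M1 minus CT-BM to 0.67 with quantile normalization. With the replicate block the change of miR-150 in L-1210 minus CT-BM was -10.77, and the block changed no call of either member. Leaving out 1 replicate kept miR-342-3p in PYS minus CT-BM at -0.44 to -0.19 and miR-150 in PYS minus L-1210 at 1.17 to 1.54. Calls over all assays moved by over 1.5 times with no filter (473 against 227 in L-1210 minus CT-BM, 487 against 226 in M1 minus CT-BM, 349 against 171 in L-1210 minus M1, 401 against 250 in PYS minus M1), with card A alone (110 against 171 in L-1210 minus M1, 148 against 226 in M1 minus CT-BM), and with only assays detected in all 12 replicates (98, 103, 124, 87, 120 and 115 in the 6 comparisons, of 187 tested). The median change of all tested assays ran from -2.47 (snoRNA202 alone) to 1.05 (MammU6 alone) in L-1210 minus CT-BM and from -1.03 (snoRNA202 alone) to 0.61 (quantiles) in M1 minus CT-BM.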

Other observations

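A list of 7 miRNAs known to act on B-cell growth or, like miR-150, on Myb was read in the same fits. In L-1210 against CT-BM 1 rose and 3 fell, where 22.5% of all tested assays were called higher and 45.6% lower. In M1 3 rose and 1 fell, beside 25.2% higher and 44.3% lower, and in PYS 2 rose and 2 fell, beside 39.8% higher and 38.7% lower. In L-1210 the counts moved both ways, to 4 higher and 1 lower with MammU6 alone and to 0 higher and 6 lower with snoRNA202 alone. In PYS they moved to 4 higher and 1 lower with MammU6 alone and to 1 higher and 4 lower with snoRNA135 alone. MiR-16, which restrains the cell cycle, was 42.9-fold lower in L-1210 with the 3 controls (log2 fold change -5.42, and -7.06 to -3.68 over the scalings). That was the largest fall of the list there. MiR-15a was at -2.53 and miR-15b at -1.45, the latter called under 5 of 8 scalings (-3.09 to 0.29). MiR-17, miR-20a and miR-92a did not pass in L-1210 with the 3 controls. MiR-34a, a target of p53, was not detected in M1 or PYS. It was tested there only because CT-BM detected it, so its fall was fixed by the filter. That fall is counted in the list for both M1 and PYS. With the 3 controls it was at least 14503-fold lower in M1 and at least 5441-fold lower in PYS than in CT-BM. Over the scalings these bounds were as small as -12.44 in M1 and -10.90 in PYS on the log2 scale, against -13.82 and -12.41 with the 3 controls. In L-1210 its level was -7.68, against -8.72 in CT-BM.

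Of a blood progenitor list, 2 of 11 tested assays rose and 9 fell in L-1210 against CT-BM, and 2 of 10 rose and 7 fell in M1. In PYS 1 of 10 rose, 7 fell and 2 did not pass, beside the shares over all assays given above. The one that rose was miR-99b, with levels of -4.29 in PYS and -9.63 in CT-BM, 40.4-fold higher in PYS with the 3 controls (log2 fold change 5.34, and 4.42 to 6.85 over the scalings). It was not detected in any replicate of L-1210 or M1, so its fall there, counted above, was fixed by the filter. The same holds for the counted falls of miR-99a in L-1210 and M1, miR-221 in L-1210 and PYS, and miR-10a in PYS. None of these was detected in the named line. MiR-10b was detected in L-1210 and not in CT-BM, so its counted rise in L-1210 was fixed in the same way.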
